A study of Mus musculus with 6 samples.

Results

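The genes described here are 38 transcription factors and cofactors that control blood stem and progenitor cells, taken from a list of symbols. Every one of the 38 had a row among the 53819 genes of the deposited count table. RNA sequencing was done on spleen leukaemia cells of mice given primary leukaemias with both BCR-ABL and NUP98-HOXA9, fusion genes that together model blast-crisis chronic myeloid leukaemia (bcCML). There were 3 libraries labelled SLC6A6 KO (KO1, KO2 and KO3) and 3 labelled SLC6A6 WT (WT1, WT2 and WT3). Transplantation and the 2 fusion genes were common to both groups. Slc6a6 encodes the taurine transporter, and the series title has knock-down where the labels have KO. The sources used here do not name the allele, the strain or age of the mice, or the number of mice and leukaemias behind each group, so a p-value reflects the variation among these 6 libraries only and that variation may be technical.

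Blood stem cells are kept by a small network of factors that bind DNA together. RUNX1 with its partner CBFB, GATA2, TAL1, LYL1, LMO2, ERG and FLI1 occupy shared enhancers, with LDB1 bridging the TAL1 and LMO2 complex. MECOM and PRDM16 are related zinc finger proteins needed to maintain stem cells, E proteins bind DNA as dimers with TAL1 or with each other, and Id proteins bind E proteins and keep them off DNA. Many of these genes are altered in acute leukaemia by fusion, mutation or misexpression.

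Libraries held between 42829294 and 49537098 counts, and levels are given as CPM, the counts divided by library size after TMM scaling, a scaling based on the trimmed mean of log ratios. Slc6a6 measured 125, 132 and 133 CPM in the KO libraries, against 151, 145 and 145 CPM in the WT libraries, a difference that did not pass the test (log2 fold change −0.18 ± 0.07, SE, adjusted p = 0.196, edgeR). Counts of 4 Y-linked genes summed to between 10274 and 11236 in each KO library and to at most 1 in a WT library, while Xist was at most 4.41 CPM in KO and at least 160 CPM in WT, so the labels cannot be told apart from the sex of the cells. As markers of the leukaemia, Nup98, Abl1, Bcr, Hoxa9, Meis1, Kit and the pan-leukocyte gene Ptprc were present in all 6 libraries. They summed to 777 to 813 CPM in KO and 792 to 1008 CPM in WT, with Kit higher and Bcr lower in KO. Nup98, Abl1 and Hoxa9 were also below WT in every KO library without passing the test (adjusted p = 0.0961, 0.0986 and 0.0502, edgeR). Over all tested genes 14.4% had all KO libraries below WT. Meis1 and Ptprc overlapped. Counts per gene do not separate fusion transcripts from those of the unfused genes. The 7 markers of stroma and endothelium summed to 129 to 190 CPM in KO and 113 to 253 CPM in WT, nearly all of it Col1a2, with Pecam1 at 4.24 to 6.57 CPM in KO and 9.93 to 20.1 CPM in WT. Neither gene passed the test, and Cdh5 and Col3a1 were at 0 in every library. In these bulk samples fewer cells of a type and less RNA per cell cannot be told apart.

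The PR domain genes Prdm16 and Mecom are paralogues, and their promoters are shown first because Prdm16 has the largest difference of all members. The pair was chosen after its values were seen. RefSeq (build GRCm38.p6) gave a promoter window for 31 of the 38 members. The 250 bases before the Prdm16 start (chr4:154636874-154637123, minus strand) and before the upstream of the annotated Mecom starts (chr3:30509760-30510009, minus strand) are given 5′ to 3′, with the longest run shared by these stretches in capitals.
Prdm16: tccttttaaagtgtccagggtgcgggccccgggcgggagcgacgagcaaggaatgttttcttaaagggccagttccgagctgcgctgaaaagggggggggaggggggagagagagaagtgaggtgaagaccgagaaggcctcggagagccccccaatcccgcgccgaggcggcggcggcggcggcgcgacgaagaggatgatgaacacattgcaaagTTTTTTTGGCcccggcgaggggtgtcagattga
Mecom: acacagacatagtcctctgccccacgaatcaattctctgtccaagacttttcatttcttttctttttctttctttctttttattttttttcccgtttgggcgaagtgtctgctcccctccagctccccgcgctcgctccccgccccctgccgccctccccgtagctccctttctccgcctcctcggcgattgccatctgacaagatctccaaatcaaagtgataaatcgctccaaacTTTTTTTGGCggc

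Just after the start both genes share a longer run of 24 bases, at chr4:154636841-154636864 for Prdm16 and chr3:30509710-30509733 for Mecom, in which capitals mark an E-box (CANNTG).
Shared run: gcgCATGTGcgaaggtgtccaaac
The run begins at base 10 of the Prdm16 transcript and base 27 of the Mecom transcript, where it reaches the end of the window. Among 32851 RefSeq windows of 300 bases, only these 2 hold it, and 18 hold the 10-base run TTTTTTTGGC. Motifs were searched as exact letters on both strands: AGATAA and TGATAA for GATA factors, TGTGGT for RUNX, CCGGAA for ETS, CAGCTG and CAGATG for E proteins, CANNTG for any E-box (which includes both of those) and GTAAACA for FOXO. The Prdm16 window held 1 match, the E-box in the shared run, and 72.3% of all windows hold CANNTG. The upstream Mecom window held that E-box, 1 CAGATG on the minus strand (found in 17.2% of all windows) and 1 TGATAA (9.05%).

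Prdm16 was the member with the largest difference. It had 30, 61 and 35 counts in KO1, KO2 and KO3, against 1858, 2023 and 1832 counts in WT1, WT2 and WT3, which is 0.675, 1.33 and 0.848 CPM in KO against 36.8, 42.6 and 40.5 CPM in WT. All 3 KO libraries were far below all 3 WT libraries, and KO2 was the highest of the KO libraries. The gene was 41.9-fold lower in KO (log2 fold change −5.39 ± 0.28, SE, n = 3 against 3, Benjamini-Hochberg adjusted p = 7.31e-04, edgeR's quasi-likelihood test). By log2 fold change it was the 43rd lowest of 15232 tested genes. The nearest genes on the chromosome had almost no reads in either group: Arhgef16 had 0 counts in all KO libraries and 3 in all WT libraries together, and Actrt2 had 0 in all 6. The opposite-strand gene annotated at its exons, B230104I21Rik, had 0 counts in every library.

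Mecom, which encodes the zinc finger factor EVI1 and its longer form MDS1-EVI1, was at 59.3, 84.7 and 33.4 CPM in KO, against 35.7, 21.4 and 35.0 CPM in WT. KO3 lay inside the WT range while KO1 and KO2 were above it, and counts per gene do not separate the forms. The log2 fold change was 0.95 ± 0.35 with an adjusted p of 0.174, and it lay between 0.59 and 1.22 when 1 library was left out. To compare levels between genes, CPM was divided by the length of the annotated exons in kilobases. This length merges the exons of all annotated transcripts of a gene, so it can exceed that of the transcripts present. On that scale Prdm16 took 1.495%, 2.05% and 3.27% of the summed level of this pair in the KO libraries, against 57.9%, 72.6% and 60.7% in the WT libraries. Mecom was thus nearly the whole of the pair in KO, and the smaller part of it in each WT library. Hlf, a PAR bZIP factor of stem cells, was barely detected, with 11, 2 and 0 counts in KO and 1, 0 and 2 in WT, and was not tested.

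**Figure D1:**
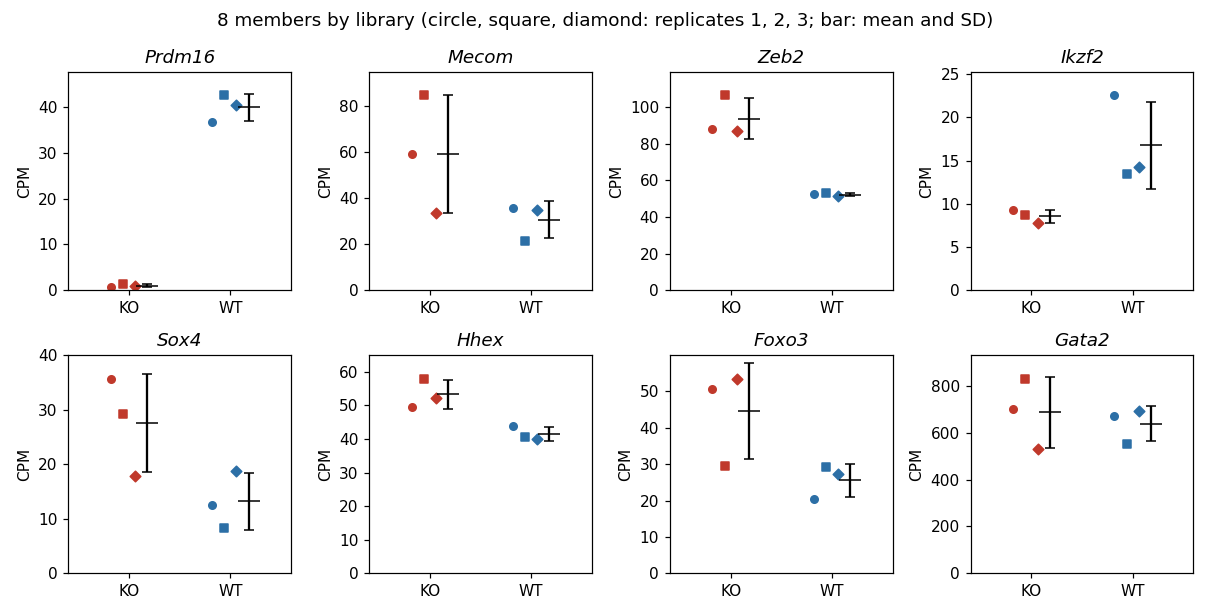
CPM of 8 members in each library (y axis, from 0), with KO left of WT; circle, square and diamond are replicates 1, 2 and 3, and the bar is the mean with its SD. Prdm16 sits near 1 CPM in KO and near 40 CPM in WT, Zeb2 groups are apart, and Gata2 groups overlap.

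Of the 37 members that passed the low-count filter, Prdm16 was lower and Zeb2 higher in KO at an adjusted p below 0.05, and the other 35 did not pass. That is 5.41% of the tested members, against 3.56% of all 15232 tested genes called in either direction (1.64% higher and 1.92% lower). At an unadjusted p below 0.05 there were 20 of the 37, against 22.0% of all genes. All KO libraries lay above all WT libraries for 12 tested members and below them for 4. Over all genes 28.0% did not overlap, 13.6% with KO above and 14.4% with KO below. Of the 37, Satb1 and Id3 passed the filter only through KO and Zbtb16 only through WT, so these had to differ. Among the 34 members that reached the minimum count in both groups, 10 lay above and 3 below, and the median log2 fold change was 0.25, against 0.01 over all genes. These are descriptions of a chosen list and no test was made of them.

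**Figure D2:**
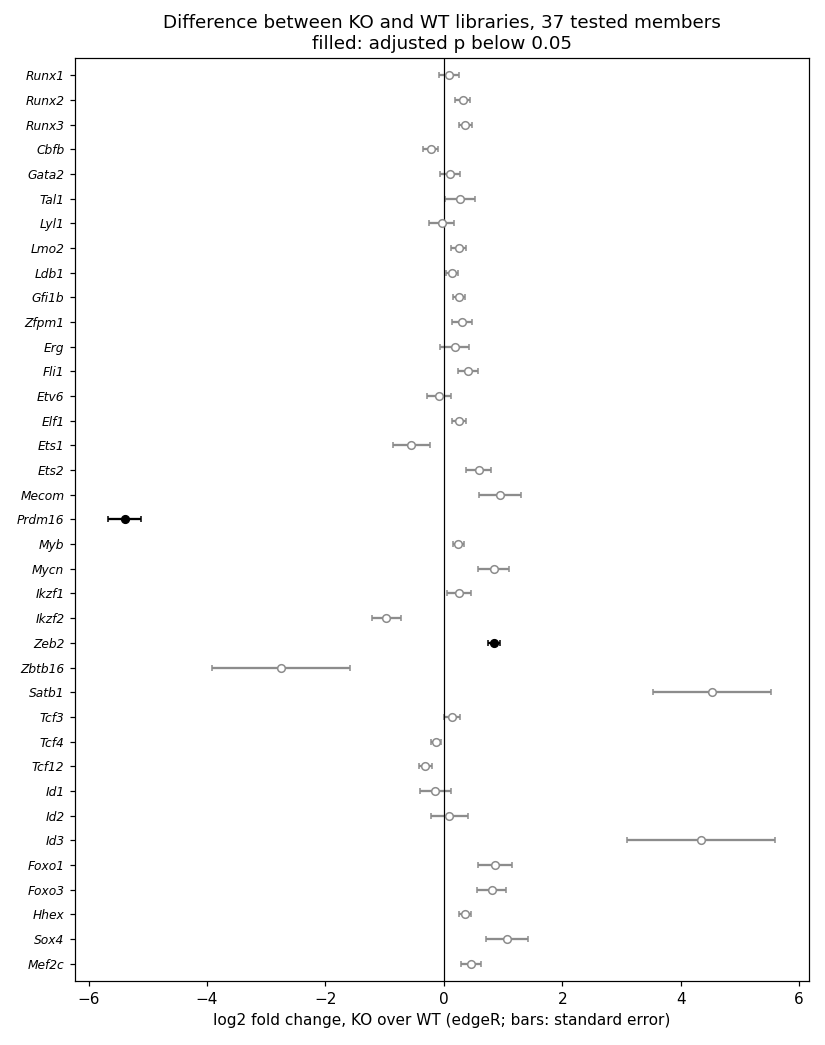
Log2 fold change of each tested member, KO over WT (x axis), from edgeR, with bars for the standard error; filled points have an adjusted p below 0.05. Prdm16 at −5.39 and Zeb2 at 0.84 are the filled points, and the wide bars of Satb1, Id3 and Zbtb16 belong to genes with few counts in 1 group.

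Zeb2 encodes a zinc finger and homeodomain repressor needed for the differentiation of blood stem cells. Its level was 87.8, 106 and 86.8 CPM in the KO libraries, against 52.5, 52.9 and 51.2 CPM in the WT libraries. The WT libraries were nearly identical, and every KO library was well above them. Zeb2 rose 1.79-fold in KO (log2 fold change 0.84 ± 0.10, adjusted p = 0.0165), and without WT3 the adjusted p was 0.0920 at a log2 fold change of 0.82. The genes on either side, Gtdc1 and Acvr2a, had log2 fold changes of 0.15 and −1.001 (adjusted p = 0.715 and 0.287), and the next ones out, Arhgap15 and Orc4, 0.09 and −0.15. None of these 4 passed the test. Macrophages and dendritic cells also express Zeb2, and their markers summed to 35.7 to 88.8 CPM in KO against 20.4 to 33.7 CPM in WT. Of these 9 markers 2 were higher (Csf1r and Mrc1) and none lower, against 1.64% of all tested genes called higher. The other 7 did not pass. Of those, C1qa, C1qb, Itgax and Xcr1 were above WT in every KO library, Flt3 was below, and Adgre1 and Cd68 overlapped. Itgax and Xcr1 passed the filter only through KO, so they could hardly have fallen. Over all tested genes 13.6% had all KO libraries above WT and 14.4% below. Zeb2 was highest in KO2 and the marker sum in KO1, and the part of these cells in the Zeb2 result was not tested. None of the motif letters listed above occurs in any of the 4 RefSeq windows of Zeb2.

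Among the remaining zinc finger factors, Ikzf2, which encodes the Ikaros family member Helios, was at 9.25, 8.67 and 7.78 CPM in KO, against 22.6, 13.5 and 14.3 CPM in WT. The groups did not overlap, but the log2 fold change of −0.97 ± 0.24 had an adjusted p of 0.0764. Ikzf1, which encodes Ikaros itself, overlapped between the groups (111, 109 and 152 CPM in KO, 76.4, 120 and 116 CPM in WT), and Ikzf2 made up 2.48% to 3.97% of the pair per kilobase in KO against 5.27% to 12.8% in WT. Satb1, a chromatin organiser of lymphoid progenitors and T cells, had 102, 30 and 85 counts in KO and 5, 0 and 5 in WT, a fitted ratio of 23.0-fold at an adjusted p of 0.0596. Zbtb16, which encodes PLZF, had 0, 15 and 16 counts in KO and 158, 26 and 53 in WT (adjusted p = 0.226). WT1 held most of the WT counts of Zbtb16. Both genes stayed below 4 CPM in every library.

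Genes of T cells are given beside Satb1. Of 11 T and NK cell markers 3 rose (Cd3d, Cd3e and Cd4), 0 fell and 2 were not tested, against 1.64% of all tested genes called higher. The 3 that rose passed the filter only through KO, so they could hardly have fallen. The list summed to 739 to 1051 CPM in KO and 705 to 858 CPM in WT, nearly all of it from Nkg7, which did not pass the test. The T cell receptor complex genes Cd3d, Cd3e, Cd3g and Trac, picked after their values were seen, summed to 15.3, 3.72 and 11.9 CPM in KO1, KO2 and KO3, against 1.03, 0.274 and 0.486 CPM in WT1, WT2 and WT3. Each of these genes passed the filter only through KO, as did Satb1. KO2 was the lowest KO library for Satb1 and for this sum. Elsewhere in the list, Cd8a, which also passed only through KO, and the untested Cd5 were above WT in every KO library. Lck averaged 13.9 CPM in KO and 14.5 CPM in WT, and Klrb1c 0.859 CPM in KO and 3.08 CPM in WT. Both overlapped between the groups and did not pass. The part of T cells in the Satb1 level was not tested.

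Gata2 and Lmo2 were the most abundant members per kilobase, and no gene of the GATA and TAL1 complex passed the test. Gata2, the zinc finger factor of stem, progenitor and mast cells, was at 703, 831 and 529 CPM in KO, against 672, 553 and 691 CPM in WT, with a log2 fold change of 0.11 ± 0.17. The KO range enclosed the WT range. Lmo2, the LIM-domain bridge of the TAL1 complex, was at 395, 428 and 394 CPM in KO, against 285, 391 and 348 CPM in WT (0.25 ± 0.12, adjusted p = 0.280). Per kilobase, Lmo2 and Gata2 were the first and second of the 38 members in both groups, at means of 187 and 127 CPM per kilobase in KO and 158 and 118 in WT. Next came Zfpm1 (123 in KO, 99.5 in WT), whose libraries overlapped those of Gata2 in both groups, and Gfi1b (106 in KO, 89.0 in WT), whose libraries overlapped those of Gata2 in KO but not in WT. Lmo2 lay above Gata2 in every library of each group.

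Tal1, the basic helix-loop-helix partner of E proteins in this complex, was at 101, 68.4 and 121 CPM in KO, against 58.7, 97.8 and 84.2 CPM in WT. Its close relative Lyl1 was at 15.7, 11.8 and 13.6 CPM in KO, against 11.2, 16.5 and 14.5 CPM in WT. Per kilobase, Tal1 took 70.3% to 78.6% of this pair in KO and 68.2% to 70.9% in WT, so it was the main form in all 6 libraries. Ldb1, the bridging cofactor, was at 97.1 to 105 CPM in KO and 81.8 to 98.9 CPM in WT. Gfi1b, a repressor of erythroid and megakaryocyte cells, was at 208, 165 and 209 CPM in KO, against 165, 161 and 163 CPM in WT. Zfpm1, which encodes the GATA cofactor FOG1, was at 418, 352 and 522 CPM in KO, against 286, 378 and 381 CPM in WT. None of the 7 genes of this complex passed the test in edgeR or in DESeq2, and 1 (Gfi1b) had an unadjusted p below 0.05. Of the 7, 6 had a positive log2 fold change and 1 a negative, between −0.04 and 0.31. Exons of Lyl1 and Ldb1 overlap the opposite-strand genes Nfix and Pprc1, whose reads this unstranded chemistry cannot separate.

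Erythroid markers varied within both groups and some members followed them. The 10 erythroid markers summed to 23416, 8023 and 26818 CPM in KO1, KO2 and KO3, against 2614, 11042 and 6090 CPM in WT1, WT2 and WT3, with none past the test. The most abundant of the 10 were the globin genes Hbb-bs, Hbb-bt and Hba-a1. Tal1, Ikzf1, Tcf3 and Foxo3 had the order of this sum within each group, with KO2 lowest of KO and WT1 lowest of WT. KO2 was also lowest of KO for Zfpm1, Gfi1b, Runx2, Lyl1, Ets1, Satb1, Tcf4, Tcf12 and Id2. Within WT, Gfi1b, Runx2, Ets1 and Tcf4 ran in the reverse order of the sum and Lyl1 in its order. Zfpm1, Satb1, Tcf12 and Id2 ran in neither. The share of all genes with the order of the sum was not counted. Prdm16 and Zeb2 did not follow it: Prdm16 was highest of KO in KO2, and the Zeb2 level of KO2 was the highest of all 6 libraries. Whether erythroid cells contribute to the differences of Foxo3 or Tal1 was not tested.

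**Figure D3:**
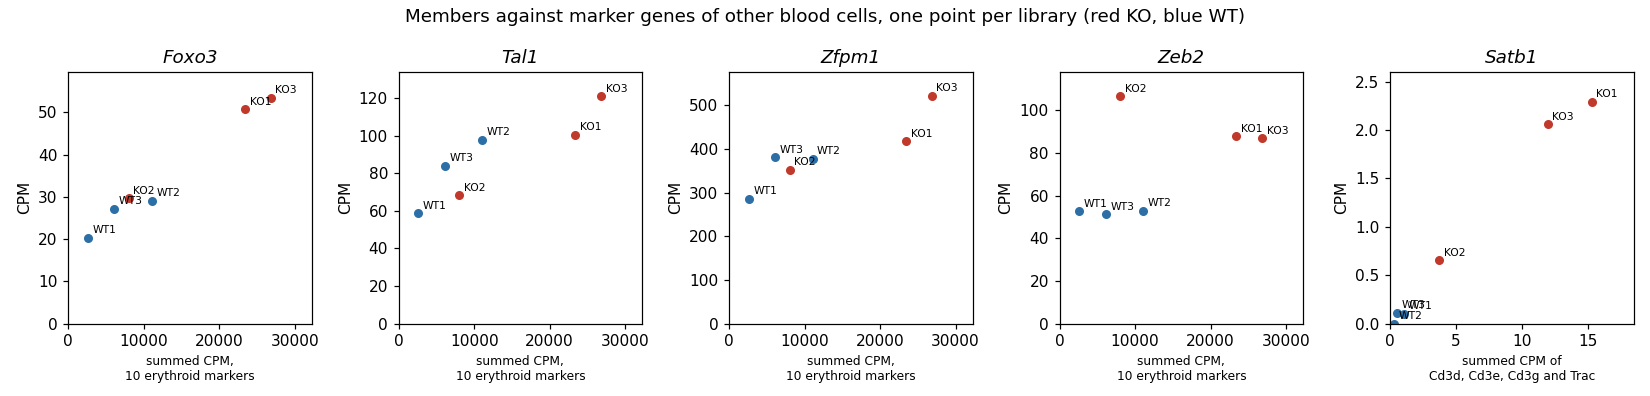
CPM of 5 members (y axes) against summed CPM of 10 erythroid markers, or of 4 T cell receptor complex genes for Satb1 (x axes), with 1 point per library, red for KO and blue for WT. Foxo3 and Tal1 are highest in KO1 and KO3, the libraries with the most erythroid transcripts, and the 3 KO points of Zeb2 lie above the 3 WT points. Erythroid sums of the groups share only the range between KO2 and WT2.

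RUNX factors bind DNA with CBFB, and RUNX1 is required for the emergence of blood stem cells. Runx1 was at 113, 134 and 95.7 CPM in KO, against 131, 95.8 and 95.7 CPM in WT, and the groups overlapped. Runx2 was at 77.8, 57.5 and 69.7 CPM in KO, against 56.6, 53.2 and 54.8 CPM in WT. Runx3 was at 39.6, 43.2 and 36.6 CPM in KO, against 29.0, 31.3 and 32.4 CPM in WT. Runx2 and Runx3 were higher in every KO library than in any WT library, at log2 fold changes of 0.32 ± 0.12 and 0.37 ± 0.11 that did not pass (adjusted p = 0.199 and 0.125). Cbfb was at 154, 170 and 134 CPM in KO, against 205, 156 and 175 CPM in WT (−0.23 ± 0.13, adjusted p = 0.369). Per kilobase the 3 RUNX genes contributed similar parts, with Runx1 at 34.4% to 42.4% of the family in KO and 38.6% to 47.2% in WT.

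ETS factors bind a GGA core, and ERG and FLI1 belong to the stem cell network while ETV6 is a repressor needed in adult bone marrow. Fli1 was at 98.5, 124 and 87.5 CPM in KO, against 93.0, 69.2 and 71.6 CPM in WT (0.41 ± 0.17, adjusted p = 0.216). Erg was lower in level, at 10.9, 15.4 and 9.38 CPM in KO, against 9.55, 12.3 and 9.62 CPM in WT. Etv6 was at 174, 241 and 153 CPM in KO, against 225, 155 and 218 CPM in WT, and both genes overlapped between the groups. Elf1, an activator of lymphoid and myeloid genes, was tight in KO, at 208, 210 and 210 CPM, against 196, 145 and 185 CPM in WT. Its exons overlap those of the opposite-strand gene Wbp4. Ets1, the founding member of the family and abundant in lymphocytes, was at 22.3, 13.1 and 19.8 CPM in KO, against 38.8, 18.5 and 23.4 CPM in WT (−0.55 ± 0.32). Ets2 was at 18.8, 18.1 and 12.9 CPM in KO, against 12.6, 10.8 and 9.68 CPM in WT, without overlap but at an adjusted p of 0.161. Elf1, Etv6 and Fli1 together made up most of the family per kilobase in every library, while Erg took 3.04% to 3.82% in KO and 2.68% to 4.73% in WT.

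**Figure D4:**
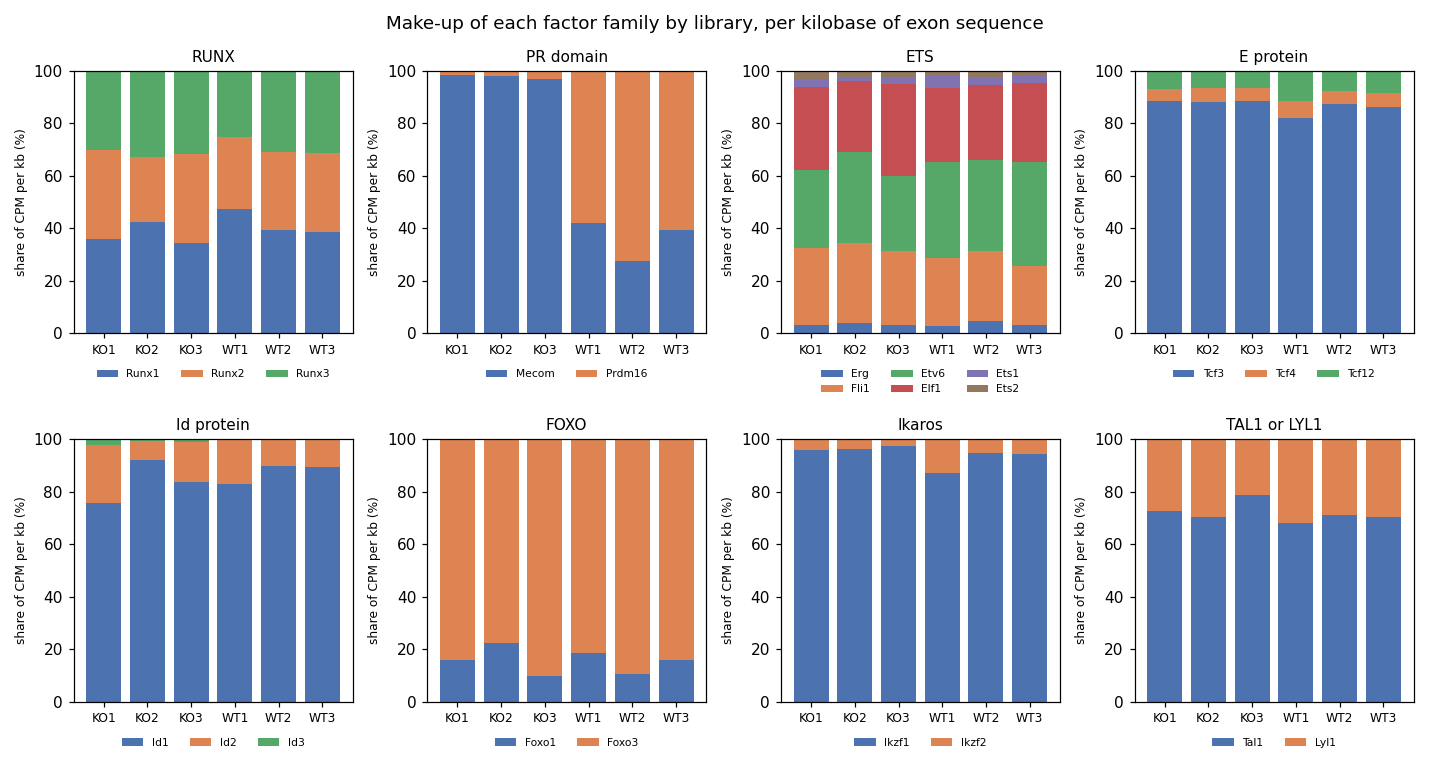
Share of each family's summed CPM per kilobase of exon sequence (y axis, percent) taken by each member in KO1 to KO3 and WT1 to WT3. The PR domain panel differs between groups, with Prdm16 at 1.495% to 3.27% in KO and 57.9% to 72.6% in WT, and Fli1, Ets1, Ets2, Tcf3, Tcf12, Id3, Ikzf1 and Ikzf2 shares also do not overlap between the groups. The other shares overlap.

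Myb and Mycn, the MYB and MYC members of this list, were higher in level in most KO libraries without passing the test. Myb, a factor that sustains progenitor proliferation, was at 205, 226 and 204 CPM in KO, against 184, 160 and 192 CPM in WT (0.24 ± 0.09, adjusted p = 0.184). Mycn, the MYC paralogue expressed in stem cells, was at 166, 194 and 120 CPM in KO, against 120, 64.9 and 82.1 CPM in WT (0.84 ± 0.26, adjusted p = 0.123). KO3 and WT1 met at the edge of the groups for Mycn. Myc itself, which is no member, ran the other way at 293 to 368 CPM in KO and 415 to 461 CPM in WT (−0.39 ± 0.11, adjusted p = 0.0954).

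No E protein or Id gene passed the edgeR test, while Tcf12 and Id3 had an unadjusted p below 0.05 and DESeq2 called Id3. Tcf3, which encodes E2A, was at 260, 232 and 287 CPM in KO, against 198, 273 and 241 CPM in WT. Tcf12, which encodes HEB, was at 78.4, 68.1 and 83.3 CPM in KO, against 106, 90.6 and 89.6 CPM in WT, without overlap (−0.31 ± 0.11, adjusted p = 0.165). Tcf4, which encodes E2-2 and directs plasmacytoid dendritic cells, was at 95.03, 94.5 and 106 CPM in KO, against 111, 106 and 107 CPM in WT. The 7 plasmacytoid markers summed to 77.2 to 137 CPM in KO and 95.1 to 124 CPM in WT, mostly from Bst2, with none past the test. Irf8 averaged 4.45 CPM in KO and 0.672 CPM in WT, and Spib 0.740 CPM in KO and 0.0793 CPM in WT, without overlap, though both passed the filter only through KO. Siglech had counts in KO1 alone and Klk1 none in any library. The part of such cells in the Tcf4 level was not tested. Tcf3 supplied 88.0% to 88.5% of the E protein level per kilobase in KO and 81.9% to 87.4% in WT. This share depends on the merged exon lengths, 4039 bases for Tcf3, 27382 for Tcf4 and 15529 for Tcf12. Without that division Tcf3 was still the highest but by a smaller ratio. Mean CPM of Tcf3, Tcf4 and Tcf12 was 260, 98.6 and 76.6 in KO and 237, 108 and 95.2 in WT. Id1 was at 28.7, 49.97 and 27.8 CPM in KO, against 31.5, 47.2 and 39.0 CPM in WT, and Id2 at 17.8, 8.34 and 10.8 CPM in KO, against 13.6, 11.3 and 9.62 CPM in WT. Id3 had 59, 24 and 20 counts in KO and 0, 0 and 5 in WT (adjusted p = 0.106). Per kilobase, the summed E protein level exceeded the summed Id level in every library. The ratios were 2.23, 1.40 and 2.80 in KO and 1.82, 1.71 and 1.84 in WT, and they depend on the same lengths.

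FOXO factors hold stem cells in quiescence and are excluded from the nucleus by AKT. Foxo3 was at 50.7, 29.6 and 53.5 CPM in KO, against 20.4, 29.1 and 27.2 CPM in WT, with KO2 just above WT2 (0.81 ± 0.25, adjusted p = 0.126). Without KO2 the log2 fold change was 1.02 and the adjusted p 0.0419, and without any other single library it was 0.64 to 0.91 with adjusted p between 0.178 and 0.315. Foxo1 was at 11.03, 9.82 and 6.57 CPM in KO, against 5.33, 3.94 and 5.79 CPM in WT (0.86 ± 0.28, adjusted p = 0.138). Of 14 FOXO target genes listed for this purpose 13 were tested, 2 rose and none fell, against 1.64% higher and 1.92% lower over all genes. These were Sesn1, a stress-induced regulator of mTORC1, which rose 1.41-fold (99.7 ± 5.88 CPM in KO, 70.9 ± 4.61 in WT, SD, n = 3, adjusted p = 0.0381), and the pseudokinase gene Trib2, which rose 6.43-fold (adjusted p = 0.0312). Trib2 was at 16.1, 18.6 and 45.0 CPM in KO, against 5.27, 3.01 and 4.09 CPM in WT. The other 11 did not pass. Of the 13 tested targets 9 had a positive log2 fold change and 4 a negative. All KO libraries lay above WT for 4 and below WT for 2, which were Irs2 and Pik3ip1 (−0.40 and −0.53). Over all genes 13.6% lay above and 14.4% below.

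The remaining members are developmental factors of progenitors. Hhex, a homeobox gene needed for lymphoid progenitors, was at 49.6, 58.0 and 52.2 CPM in KO, against 43.9, 40.6 and 39.9 CPM in WT, without overlap (0.36 ± 0.10, adjusted p = 0.104). Sox4, an HMG-box factor that is often raised in leukaemia, was at 35.7, 29.2 and 17.9 CPM in KO, against 12.5, 8.28 and 18.8 CPM in WT (1.06 ± 0.36, adjusted p = 0.147). KO3 lay below WT3 for Sox4. Mef2c, a MADS-box factor of lymphoid and myeloid progenitors, was at 231, 281 and 221 CPM in KO, against 222, 144 and 168 CPM in WT (0.46 ± 0.17, adjusted p = 0.181), with KO3 and WT1 meeting.

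**Figure D5:**
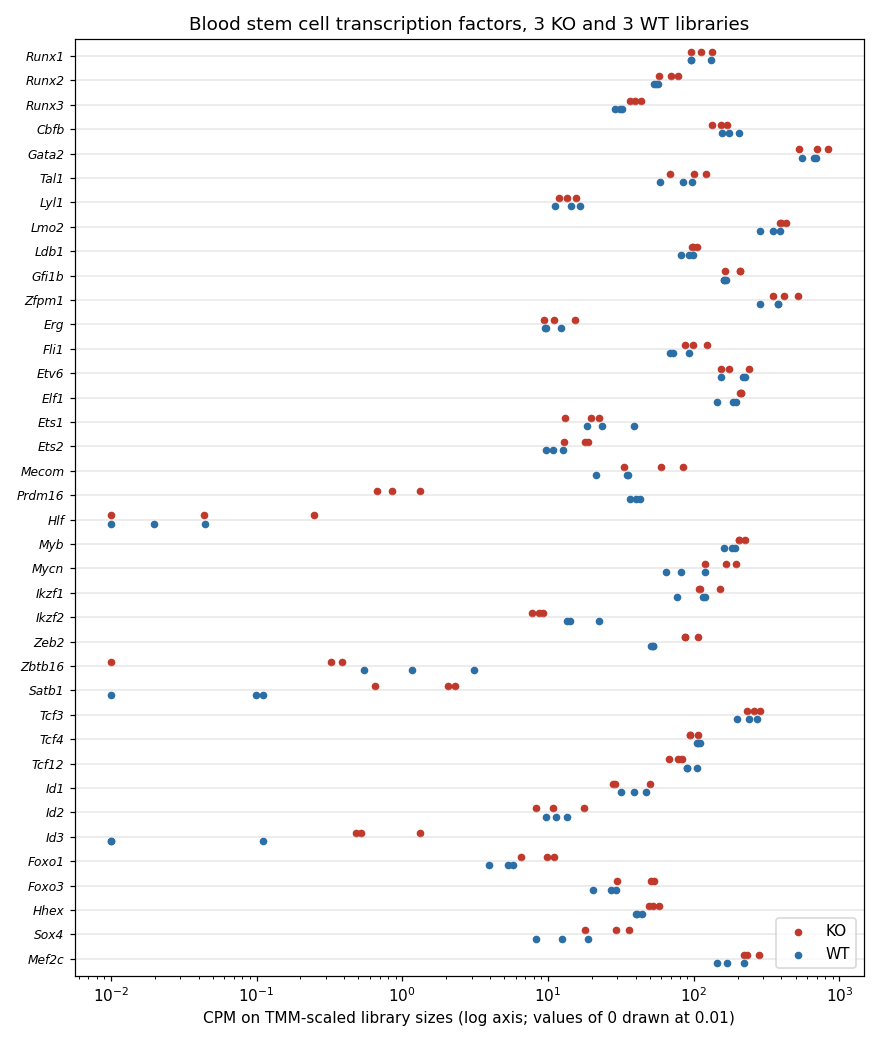
CPM of the 38 members in each library (x axis, log scale, values of 0 drawn at 0.01), KO in red above WT in blue. The groups overlap for most members, and Prdm16 lies near 1 CPM in KO and near 40 CPM in WT.

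Other genes of the same families and complexes, 50 in a separate list, showed 3 higher and 0 lower in KO among 43 tested with edgeR. Over all genes 1.64% were higher and 3.56% called in either direction. At an unadjusted p below 0.05 there were 16 (22.0% of all genes), and DESeq2 called 10 (13.1% of all genes with an adjusted p). The 3 had few reads in WT and passed the filter through KO alone. Gata3, the T cell and ILC member of the GATA family, had 98 counts in KO and 1 in WT, a ratio of 107 with a 95% exact counting interval from 18.7 to 4252 (adjusted p = 0.0262). Mycl had 60 counts in KO and 0 in WT, at least 21.8-fold higher than the 3 counts over the group that a count of 0 allows (adjusted p = 0.0354). Tcf7, which encodes the T cell factor TCF1, was at 6.66, 1.154 and 3.59 CPM in KO, against 0.396, 0.147 and 0.155 CPM in WT (adjusted p = 0.0436), in the same KO order as the T cell receptor genes listed above. The median log2 fold change of the 43 was 0.11. Gata1, the erythroid partner of FOG1, was at 312, 227 and 324 CPM in KO, against 219, 262 and 226 CPM in WT and did not pass.

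Of 16 listed target genes of the GATA2, TAL1, ETS and RUNX factors, 3 rose and 1 fell. The background of calls is the 3.56% given above. Kit, the stem cell factor receptor, rose 3.64-fold (75.9, 74.8 and 44.6 CPM in KO, against 25.6, 9.90 and 18.1 CPM in WT, adjusted p = 0.0450), and Vwf rose 2.703-fold and Csf1r 13.3-fold. Hpgds, the prostaglandin D synthase gene of mast cells and megakaryocytes, fell to 0.854 ± 0.405 CPM in KO, against 11.3 ± 5.36 CPM in WT (SD, n = 3, 13.2-fold lower, adjusted p = 0.0245). The megakaryocyte markers summed to 1232 to 1506 CPM in KO and 1336 to 2038 CPM in WT, with Vwf and Nfe2 higher and Pf4 lower. Mast cell and basophil markers summed to 47.1 to 74.3 CPM in KO and 55.8 to 126 CPM in WT, with Hdc lower and Mcpt4, which passed the filter only through KO, higher. The part of these cell types, and of macrophages, in the target gene results was not tested. Of 10 listed E protein targets 4 were tested and none passed (3 had an unadjusted p below 0.05). Rag1, Dntt and Ptcra had no count in any library. Leaving out 1 library at a time, between 0 and 5 of all 40 targets passed, against 6 with all libraries, and none passed without WT1 or without WT2. For the 50 related genes the number was between 0 and 2, against 3, and 0 without any of KO1, KO3, WT1, WT2 and WT3.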

How the data were processed

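The authors deposited whole-number read counts for each gene, with 1 column for every library. The submitters' processing notes list fastp (0.23.1), STAR (2.7.9a), featureCounts and Subread (2.0.1) without their settings. Neither the genome build nor how multi-mapping reads were handled is stated there. Per the labels' protocols, cDNA was amplified by SMARTer and made into libraries by Nextera XT. Neither strand nor molecules are marked, so intervals and floors cover counting error only.

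Genes were filtered with edgeR's filterByExpr (minimum count 10, minimum total 15), leaving 15232. Groups were compared with edgeR 4.0.16 (TMM, robust quasi-likelihood F test, no covariate) under R 4.3.3, with Benjamini-Hochberg adjustment over all tested genes at 0.05. The standard error is the log2 fold change divided by the square root of F. The fit was tested on simulated counts. Libraries of a group differed by more than sampling noise (chi-square per degree of freedom 36.4 to 127). Exon lengths and overlaps came from GENCODE M21, promoters from RefSeq.

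Members, lists and tests were chosen with earlier results of these data known. All members are named; of the lists, those past the test. At these depths 3 counts are 0.0594 to 0.0727 CPM. The chosen alternatives were other scalings, tests and filters, the replicate number as a block, and each library left out.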

Additional observations from a re-analysis of the deposited data

How the results depend on the processing

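Prdm16 stayed past the threshold, and lower in KO, in all 14 alternatives, at log2 fold changes from −5.72 to −5.19 and a highest adjusted p of 0.0252. Zeb2 kept its direction in all 14 and lost its call without WT3 and with the replicate block (adjusted p = 0.0709). Whether replicate numbers pair the samples is not known. The correlations of same-numbered deviations were 0.06, −0.14 and −0.07, and those of differently numbered ones ran from −0.133 to 0.187. Deviations from the mean of 3 libraries constrain each other, so these values cannot decide it. With the replicate block members higher in KO numbered 0, all genes 8 higher and 20 lower, and the related genes and targets 0 and 0. DESeq2's Wald test called 10 members higher and 2 lower, 1075 genes higher and 920 lower, 10 related genes and 15 targets. The members it added were Foxo1, Foxo3, Hhex, Id3, Ikzf2, Mecom, Mycn, Runx3, Satb1 and Sox4. Without a low-count filter 2 members were higher, Satb1 (adjusted p = 0.0486) beside Zeb2. Requiring at least 1 CPM in 3 libraries left 1 related gene past the test, and limma-voom 3 targets.

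Leaving out each library gave 0 to 2 members higher and 1 lower, 13 to 371 genes higher and 29 to 247 lower, 0 to 2 related genes and 0 to 5 targets. The lowest counts over all genes came without WT3. Signs turned, with 1 library left out, for 8 members, whose log2 fold changes then ran from −0.05 to 0.235 for Runx1 (0.00 without WT3), −0.058 to 0.258 for Gata2, −0.198 to 0.088 for Lyl1, −0.055 to 0.318 for Erg, −0.295 to 0.049 for Etv6, −0.005 to 0.244 for Tcf3, −0.484 to 0.008 for Id1 and −0.268 to 0.304 for Id2. The cause was not tested. Depth limits Hlf, Id3, Satb1 and Zbtb16, each with under 5 counts in at least 1 library.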
